A study of Mus musculus with 1012 samples.

Results

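The suppressors of cytokine signalling (SOCS) form a family of 8 genes in the mouse, Socs1 to Socs7 and Cish, and all 8 were found by symbol among the 30452 features of a count table of single-cell libraries. Each symbol matched 1 Ensembl gene, and all 8 had enough counts to enter the tests described below. The table holds 1012 libraries from Live-seq, a method that draws a small cytoplasmic biopsy out of a living cell with a hollow microscopic probe and sequences its RNA, and from conventional single-cell RNA sequencing (scRNA-seq) of whole cells of the same kinds. There were 296 Live-seq biopsies and 162 whole IBA cells collected after a biopsy or left unprobed, and the rest were whole cells of conventional scRNA-seq. RAW264.7 is a mouse macrophage-like line, and all of its libraries but 11 LPS and 1 Mock biopsies of wild-type cells came from RAW-G9, a clonal subline that carries a Tnf-promoter mCherry reporter and an EGFP-Rela fusion. RAW_Mock cells received no lipopolysaccharide (LPS, a bacterial cell wall component sensed by macrophages). RAW_LPS biopsies were taken 4 to 5 h after its addition, and the methods section on scRNA-seq gives no time with LPS for the whole cells. The dose is given as 40 ng/ul in the sample labels and 100 ng/ml in the methods. IBA is an immortalized brown preadipocyte line from the interscapular brown fat of young male C57BL6/J mice. ASPCs are primary adipose stem and progenitor cells from the subcutaneous fat of female C57BL/6J mice of 7 to 10 weeks, taken before (ASPC_Pre) or after (ASPC_Post) 2 days with an adipogenic cocktail.

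SOCS proteins are feedback inhibitors of cytokine signalling. A cytokine that binds its receptor activates JAK kinases, which phosphorylate the receptor and STAT transcription factors, and several SOCS genes are themselves STAT targets. Each SOCS protein binds phosphorylated sites through an SH2 domain and carries a SOCS box that joins Elongin B, Elongin C and a cullin into a ubiquitin ligase, so that bound proteins can be marked for degradation. SOCS1 and SOCS3 also block the JAK kinases directly, and both restrain macrophage activation. CIS, the product of Cish, and SOCS2 are known for limiting STAT5 signalling downstream of growth hormone and related cytokines. SOCS4 and SOCS5 have been tied to epidermal growth factor receptor turnover, and SOCS6 and SOCS7 to insulin and growth factor receptor signalling.

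In GRCm38 coordinates, Cish lies at chr9:107296026-107302784 on the plus strand, Socs1 at chr16:10782240-10785536 on the minus strand, Socs2 at chr10:95385362-95417180 on the minus strand and Socs3 at chr11:117966079-117970047 on the minus strand. Socs4 lies at chr14:47276931-47296102, Socs5 at chr17:87107679-87137839 and Socs7 at chr11:97362551-97398542, all on the plus strand. All are protein-coding, and reads were counted over a gene's exons, untranslated parts included. The union of exons ran from 2891 bases for Socs3 to 11349 bases for Socs6, so levels were compared between members only per kilobase of exon. Cish is overlapped on the opposite strand by the pseudogene Gm17040, which had 23 counts in 6 cells, and by Gm17041. The counting used no strand, so strand did not separate reads of Cish from those of its antisense partners. The methods name the union mode of the counting program, and how reads were assigned or lost where these genes overlap was not examined.

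Promoter windows of 300 bases, from 250 before to 50 after the annotated start, were at hand from RefSeq (GRCm38.p6) for 4 of the 8 members, Cish, Socs1, Socs3 and Socs4. The windows were searched on both strands for TTCNNNGAA, the spaced palindrome that STAT dimers bind. Those of Cish and Socs3 are shown because they held it and because both levels are set against LPS treatment below, and capitals mark the matches.
Cish, chr9:107296409-107296708, plus strand: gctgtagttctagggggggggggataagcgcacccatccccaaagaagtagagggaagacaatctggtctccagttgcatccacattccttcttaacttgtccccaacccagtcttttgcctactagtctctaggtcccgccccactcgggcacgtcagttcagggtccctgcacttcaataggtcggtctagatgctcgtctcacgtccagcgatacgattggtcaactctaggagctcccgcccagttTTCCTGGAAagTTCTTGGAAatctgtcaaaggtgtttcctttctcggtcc
Socs3, chr11:117969317-117969616, minus strand: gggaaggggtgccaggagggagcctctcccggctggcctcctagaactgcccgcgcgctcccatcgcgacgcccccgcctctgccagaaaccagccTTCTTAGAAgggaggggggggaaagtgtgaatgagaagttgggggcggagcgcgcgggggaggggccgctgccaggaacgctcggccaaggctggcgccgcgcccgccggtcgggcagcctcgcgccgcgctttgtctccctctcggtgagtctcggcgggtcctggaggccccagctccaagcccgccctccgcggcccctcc

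The Cish window held 2 matches to TTCNNNGAA, at bases 1 and 12 counted from the start, and the Socs3 window held 1, at base -154. The Socs1 and Socs4 windows held no such match. Of 32851 mouse promoter windows of this length, 8.3% held TTCNNNGAA and 0.457% held it at least 2 times. These matches describe the letters only.

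Total counts per library ranged from 64547 to 1603790 for Live-seq, from 41030 to 2671609 for whole cells and from 38451 to 1077131 for the IBA cells after sampling. Median genes per library lay between 1622 and 6372 over the Live-seq groups of state and batch with at least 3 biopsies and between 7269 and 9883 over the groups of whole cells. Counts of the cells of 1 state and 1 batch were summed, and each sum of at least 3 cells was treated as a replicate, since cells of 1 batch are not independent samples. This gave 12 scRNA-seq sums (3 each of RAW_Mock, RAW_LPS and IBA, 2 of ASPC_Pre and 1 of ASPC_Post) and 15 Live-seq sums (4 of RAW_Mock, 5 of RAW_LPS, 3 of IBA, 2 of ASPC_Pre and 1 of ASPC_Post). The methods describe the sets of libraries as experimental replicates without saying whether each began from a separate culture. The tests took out differences in level between batches, so the p-values rest on how far state differences varied from batch to batch. Of 10 macrophage markers, 9 or 10 were counted in each scRNA-seq RAW sum, where they added up to 7852 to 11046 CPM (a gene's counts scaled to the depth of its sum), and the 10 mesenchymal markers added up to at most 5.63 CPM there. In the IBA sums of scRNA-seq batches 8_8 and scRNA the macrophage markers added up to 25.8 and 8.07 CPM, but in batch 9_1 they reached 606.7 CPM with all 10 counted. That sum enters the IBA values below, and its part in them was not tested beyond leaving the batch out. All CPM were computed without 20 genes seen in negative controls and without 85 genes of ribosomal proteins.

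The family was counted in nearly every whole cell. The median cell had counts for 6 of the 8 members in IBA, ASPC_Pre and ASPC_Post, 5 in RAW_LPS and 3 in RAW_Mock. In Live-seq the medians were 3, 3, 4, 1 and 1, and 44.2% of RAW_Mock biopsies had no count for any member, the single wild-type one among them. Per kilobase of exon, the 8 members of the scRNA-seq sums added up to 24.1 to 34.6 CPM in RAW_Mock, 34.4 to 71.6 in RAW_LPS, 65.3 to 90.1 in IBA, 77.3 and 86.3 in ASPC_Pre and 106.4 in ASPC_Post. The family total of each RAW_Mock sum was therefore below that of every IBA and ASPC sum. The leading member also differed between cell types. On the per-kilobase scale Socs4 came first in all 3 RAW_Mock sums, with 35.7% to 47.9% of the family total, and Socs3 came first in all 3 RAW_LPS sums, with 39.5% to 58.7%. Socs5 came first in both ASPC_Pre sums (48.02% and 48.2%), in ASPC_Post (33.03%) and in 2 of 3 IBA sums (40.9% and 35.03%). In the IBA sum of batch 9_1, which held the macrophage markers, Socs3 came first with 48.03% and Socs5 second with 24.3%.

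**Figure D1:**
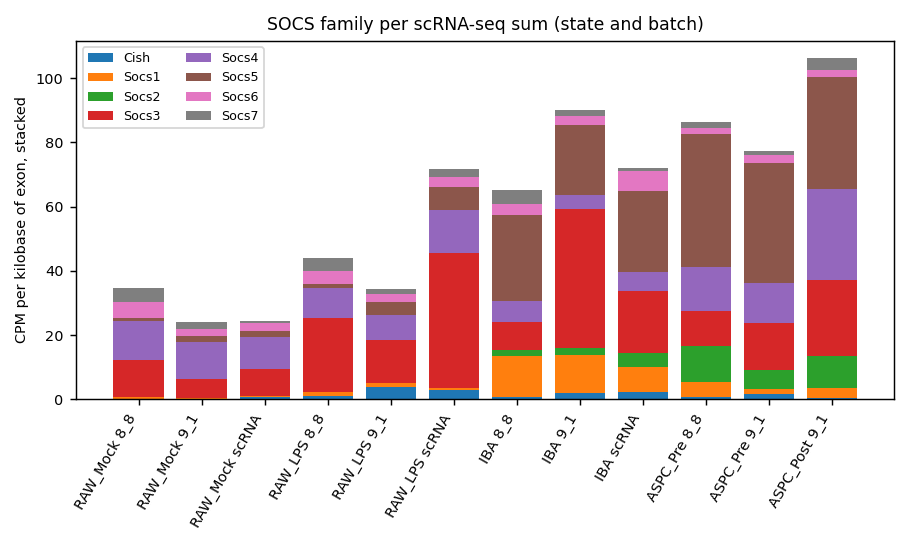
Stacked bars of CPM per kilobase of exon for the 8 members in each of the 12 scRNA-seq sums, labelled by state and batch. The RAW_Mock bars reach 24.1 to 34.6 and the ASPC_Post bar reaches 106.4, with Socs5 taking the largest part of the ASPC bars and Socs3 the largest part of the RAW_LPS bars.

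Gene by gene, the order of the states in scRNA-seq separated 3 patterns. In the first, Socs2 and Socs5 were high in the adipose cells and low in RAW cells. Mean Socs2 was 94.4 CPM in ASPC_Post, 81.3 ± 37.4 (SD, n = 2) in ASPC_Pre, 26.3 ± 13.2 (SD, n = 3) in IBA and at most 0.262 in any RAW sum. Mean Socs5 was 252.5 ± 19.1 (SD, n = 2) in ASPC_Pre, 225.4 in ASPC_Post, 157.9 ± 15.97 (SD, n = 3) in IBA, 27.7 ± 19.7 (SD, n = 3) in RAW_LPS and 9.83 ± 3.91 (SD, n = 3) in RAW_Mock, and of these neighbours only the RAW states overlapped. Socs1 led in IBA, at 31.3 ± 7.74 (SD, n = 3), followed by ASPC_Post and ASPC_Pre, whose sums overlapped, and then by RAW_LPS and RAW_Mock. The second pattern was that of Cish and Socs3, with RAW_LPS highest (16.8 and 76.01 CPM) and RAW_Mock lowest (1.46 and 24.98 CPM), but their RAW_LPS sums overlapped those of IBA. The third held Socs4, Socs6 and Socs7, whose state means followed neither of these orders. Their state means spanned 38.1 to 194.4 CPM for Socs4, 24.4 to 48.2 CPM for Socs6 and 10.6 to 26.8 CPM for Socs7, and for Socs6 and Socs7 every pair of neighbouring states overlapped. States further apart could still separate, as the Socs6 sums of IBA all lay above those of ASPC_Pre, with few sums in each.

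**Figure D2:**
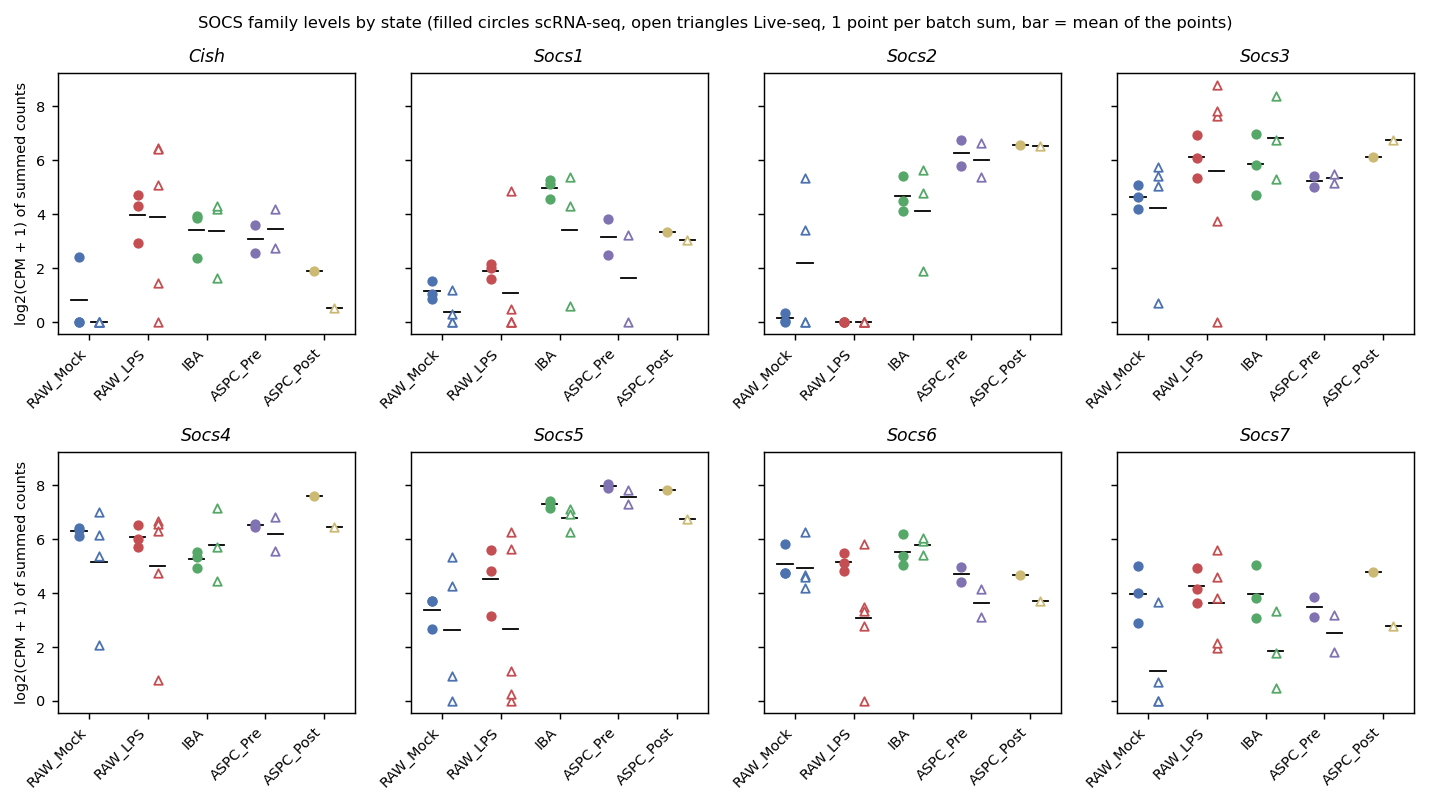
Each panel plots log2(CPM + 1) of 1 member by state, with filled circles for scRNA-seq sums, open triangles for Live-seq sums and a bar at the mean of the points. Socs2 and Socs5 circles are high in IBA and ASPC and low in RAW cells, whereas the circles of Socs6 and Socs7 overlap between neighbouring states.

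The first tested comparison asked which members distinguish unstimulated macrophage-like cells from the adipose precursors, with RAW_Mock set against the mean of IBA and ASPC_Pre. In scRNA-seq 4 of 8 members were called lower in RAW_Mock and none higher, where a call needs an edgeR adjusted p under 0.05 and more than 1 log2 unit. Of the 13565 genes tested, 25% were called lower, so the members' count is to be read against a large background. The median log2 fold change was -2.55 over the members and -0.21 over all genes tested. Socs2 was the member with the largest difference. In the RAW_Mock sums of batches 8_8, 9_1 and scRNA it had 0, 0.0391 and 0.262 CPM, a total of 10 counts in 4 cells (2.55%). In the same batches the IBA sums had 16.3, 21.4 and 41.2 CPM, and the ASPC_Pre sums of 8_8 and 9_1 had 107.7 and 54.8 CPM. No RAW_Mock sum came near any adipose sum, and the log2 fold change was -9.10 (SE 0.64, edgeR adjusted p = 5.46e-05). No RAW_LPS whole cell had a Socs2 count, a level under 0.0478 CPM if 3 counts over the group are taken as the floor.

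Socs5, linked to the turnover of the epidermal growth factor receptor, had 5.31, 12.1 and 12.1 CPM in the RAW_Mock sums of batches 8_8, 9_1 and scRNA. The IBA sums had 171.3, 140 and 162 CPM, and the ASPC_Pre sums of 8_8 and 9_1, with a mean of 252.5 CPM, had at least 239.1 CPM. The groups did not overlap (log2 fold change -4.78, SE 0.48, edgeR adjusted p = 8.68e-05). After thinning each cell to 50000 counts, 23.7% of RAW_Mock cells, 91.5% of IBA cells and 93.3% of ASPC_Pre cells had a Socs5 count, against 47.8%, 95.4% and 98.3% before thinning. Socs1, the direct JAK inhibitor of interferon signalling, had 1.85, 0.822 and 1.05 CPM in the RAW_Mock sums, 37.5, 33.8 and 22.6 CPM in the IBA sums and 13.1 and 4.64 CPM in the ASPC_Pre sums. Again no sums overlapped (log2 fold change -3.88, SE 0.51, edgeR adjusted p = 0.000357). Over all genes tested, 18.5% had RAW_Mock sums below every IBA and ASPC_Pre sum.

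Cish was called with less room. It had no count in the RAW_Mock sums of 8_8 and 9_1 and 4.37 CPM in that of batch scRNA, where all 150 counts came from 3 of 95 cells. The IBA sums had 4.17, 13.7 and 14.4 CPM and the ASPC_Pre sums 4.86 and 11.2 CPM, so the highest RAW_Mock sum lay above the lowest IBA sum. Its log2 fold change was -4.21 (SE 1.43, edgeR adjusted p = 0.0382). The call was lost without batch 8_8 (-3.52), without batch 9_1 (-2.92) and without the replicate block that pairs sums of the same batch (-2.77). The 4 members that were not called were Socs3, Socs4, Socs6 and Socs7, with log2 fold changes of -1.23, 0.15, -0.30 and 0.21.

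In Live-seq the same comparison called 0 of 8 members by edgeR, against 1.62% of 13465 genes called lower in RAW_Mock. Unadjusted p was under 0.05 for Socs1 and Cish, and for 15.8% of all genes tested. The log2 fold change of Cish was -9.40 (edgeR adjusted p = 0.0790), and it was called by DESeq2 and, in edgeR, without the replicate block (-9.59, edgeR adjusted p = 0.0364). These fits called 13.4% and 6.28% of all genes tested. Cish had no count in the RAW_Mock biopsies of 4 batches, whereas the IBA sums of batches 7, 8_8 and 9_4 had 17.5, 2.08 and 18.7 CPM and the ASPC_Pre sums of 8_8 and 9_4 had 5.74 and 17.1 CPM. The 17.5 CPM of IBA batch 7 were 170 counts of 1 biopsy. Socs5 had 0, 40.0, 18.4 and 0.895 CPM in the RAW_Mock sums of batches 6, 7, 8_8 and 9_4, all below the 75.3 to 227.7 CPM of the 5 IBA and ASPC_Pre sums, with a log2 fold change of -3.41 (SE 1.84, edgeR adjusted p = 0.429). Socs2 in Live-seq RAW_Mock rested on few biopsies: it had 39.9 CPM in batch 7, where all but 1 of the 320 counts came from 1 biopsy, 9.59 CPM in batch 6, from 1 biopsy, and no count in the 63 biopsies of batch 8_8 or the 12 of batch 9_4.

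IBA cells and undifferentiated ASPCs are both preadipocyte-type cells, 1 an immortalized brown line and 1 primary subcutaneous cells, and their comparison called 2 members, both lower in IBA. Genes called lower were 7.47% of the 13565 tested. Socs2, the brake on growth hormone receptor signalling, fell from 107.7 and 54.8 CPM in ASPC_Pre to 16.3 and 21.4 CPM in the IBA sums of the same 2 batches, with 41.2 CPM in the third IBA batch (log2 fold change -2.41, SE 0.50, edgeR adjusted p = 0.0282). Socs4 fell from 94.8 and 86.6 CPM to 44.8, 29.9 and 39.7 CPM (log2 fold change -1.63, SE 0.29, edgeR adjusted p = 0.0113). In neither gene did an IBA sum reach an ASPC_Pre sum. The share of all genes separated in this way in this comparison is not given here, and with 3 sums against 2 the separation alone carries little weight. These calls depended on single batches, although the direction did not. Without batch 9_1, 0 members were called by edgeR, with log2 fold changes of -3.04 for Socs2 and -1.39 for Socs4, and 0.322% of all genes were called. Without batch 8_8 or batch scRNA Socs4 alone was called, and Socs2 had -1.78 and -2.31. Without the replicate block the count was 1, Socs4, and Socs2 was lost (-1.82).

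The other members gave no call in this comparison. Socs1 was higher in every IBA sum (22.6 to 37.5 CPM) than in either ASPC_Pre sum (13.1 and 4.64 CPM), with a log2 fold change of 1.85 (SE 0.56, edgeR adjusted p = 0.0614). DESeq2 and the newer edgeR fit (adjusted p = 0.0174) called it, as well as Socs2 and Socs4. They called 15.1% and 19.4% of all genes tested. Socs5 was lower in every IBA sum, by -1.17 on the log2 scale (SE 0.46, edgeR adjusted p = 0.128). Socs6 was higher in every IBA sum (32.0 to 71.4 CPM) than in either ASPC_Pre sum (20.4 and 30.3 CPM). Its log2 fold change was 0.46 (SE 0.53, edgeR adjusted p = 0.605). For Socs1, Socs5 and Socs6 too, the separation of so few sums carries little weight, and the share over all genes is not given. Socs3 spanned 25.4 to 125 CPM in IBA, the highest being the sum of batch 9_1, and 31.4 and 42.3 CPM in ASPC_Pre. The member median was -0.06 and that of all genes -0.12. In Live-seq 0 of 8 members were called between IBA and ASPC_Pre by edgeR, none at an unadjusted p under 0.05 and none by DESeq2, beside 0.0223% of all genes called. The Live-seq difference was not shown to differ from that in whole cells, as 0 members passed the test of that difference by edgeR or DESeq2 (0% of genes called by edgeR) and none had an unadjusted p under 0.05.

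LPS was the stimulus of the study, and its effect on the family was read in 3 scRNA-seq batches that each held RAW_Mock and RAW_LPS cells. No member passed the edgeR threshold, although 5 of 8 (Socs1, Socs2, Socs3, Socs5 and Cish) had an unadjusted p under 0.05, as did 14.6% of all genes tested. Genes called higher after LPS were 0.921% of those tested. The 12 LPS response markers, Tnf and Nfkbia among them, added up to 422.7 to 2842 CPM in RAW_Mock and to 11838 to 25579 CPM in RAW_LPS, and all 12 had an unadjusted p under 0.05, yet only Nfkbia was called. DESeq2 called 2 members, Socs5 and Cish, and 5.26% of all genes tested. The member median was 0.93 on the log2 scale, 6 of 8 were above 0, and the median of all genes was -0.0072.

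Cish had the largest LPS difference. The RAW_LPS sums of batches 8_8, 9_1 and scRNA had 6.54, 25.3 and 18.6 CPM against 0, 0 and 4.37 CPM in RAW_Mock of the same batches. Every LPS sum was thus above every Mock sum, and 63 LPS cells (42.3%) had a count against 3 Mock cells (1.91%). In batch 9_1 a single LPS cell gave 52.6% of the counts. The log2 fold change was 4.69 (SE 1.45, edgeR adjusted p = 0.176), which ranged from 3.28 to 11.40 over the alternatives with an adjusted p from 0.00195 (DESeq2) to 0.414. Cish was called by DESeq2, by the newer edgeR fit and with cells thinned to 50000 counts. These fits called 5.26%, 3.02% and 3.28% of all genes tested.

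Socs3, which blocks JAKs at receptors of the IL-6 type, had 67.3, 39.3 and 121 CPM in the RAW_LPS sums of batches 8_8, 9_1 and scRNA against 33.3, 17.5 and 24.2 CPM in RAW_Mock. The ratios within batches were 2.02, 2.25 and 5.01, and no LPS sum was as low as a Mock sum. Its log2 fold change of 1.69 (SE 0.62, edgeR adjusted p = 0.255) passed the threshold only when RAW sums were fitted alone (1.65, edgeR adjusted p = 0.0436). That fit called 4.36% of all genes tested. Socs1 was a low-level gene in both states, at 3.39, 2.99 and 2.03 CPM in RAW_LPS and 1.85, 0.822 and 1.05 CPM in RAW_Mock. Here too the sums were apart (log2 fold change 1.38, SE 0.49, edgeR adjusted p = 0.234), and 37 LPS cells (24.8%) had a count against 7 Mock cells (4.46%). Cish, Socs1 and Socs3 were the 3 members whose LPS sums all lay above all Mock sums, a pattern held by 6.04% of all genes tested.

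Socs5 had 7.99, 27.5 and 47.5 CPM after LPS against 5.31, 12.1 and 12.1 CPM without it, and was higher in each of the 3 batches while the groups overlapped. Its log2 fold change was 1.51 (SE 0.44, edgeR adjusted p = 0.154, DESeq2 adjusted p = 0.0281). Even so, the highest RAW_LPS sum remained below the lowest IBA sum of 140 CPM. Socs4, Socs6 and Socs7 had within-batch ratios of LPS to Mock from 0.654 to 1.32, from 0.793 to 1.33 and from 0.758 to 2.67, and their groups overlapped. Socs2 had 10 counts in Mock cells and none after LPS, which is at or near the floor in both.

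**Figure D3:**
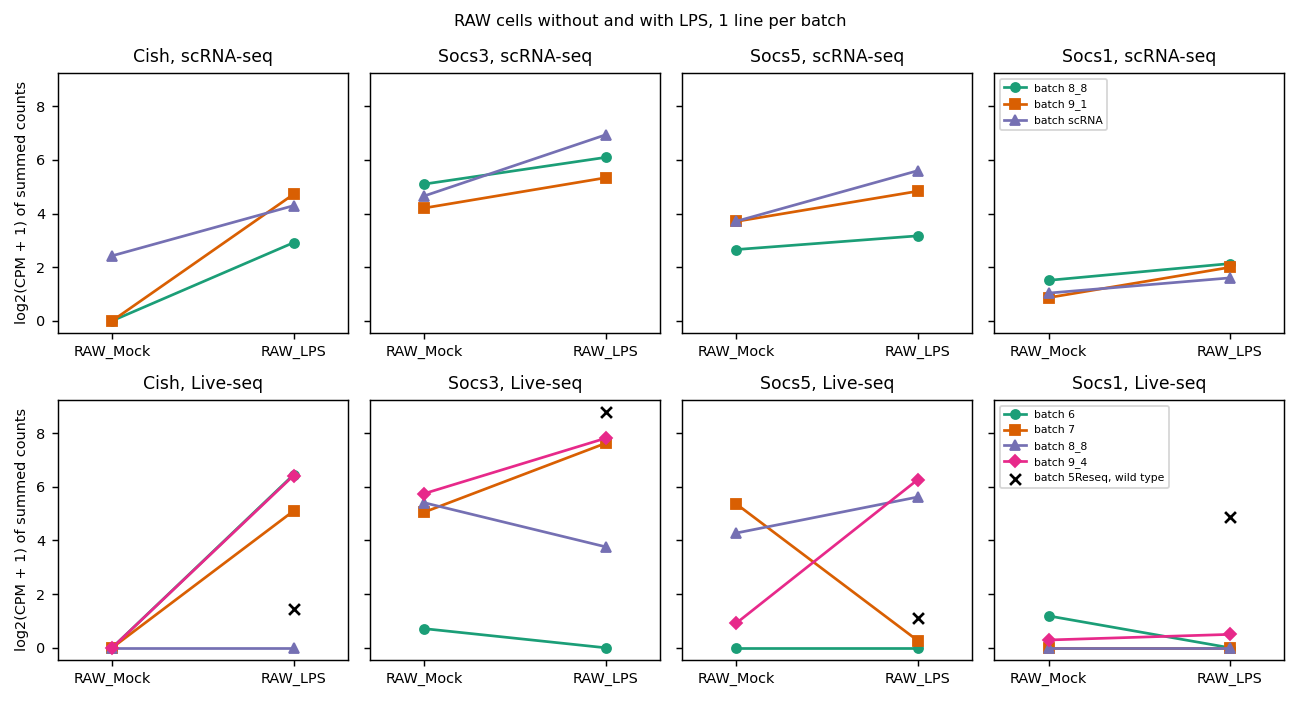
Log2(CPM + 1) of Cish, Socs3, Socs5 and Socs1 in RAW_Mock and RAW_LPS sums, with 1 line per batch for scRNA-seq (top) and Live-seq (bottom) and a cross for the wild-type RAW_LPS sum of batch 5Reseq. All scRNA-seq lines run upward from RAW_Mock to RAW_LPS, whereas the Live-seq lines of Socs3, Socs5 and Socs1 run in both directions.

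In Live-seq the LPS comparison called 0 of 8 members by edgeR, and 0% of the 13465 genes tested were called at all (4.02% had an unadjusted p under 0.05, and DESeq2 called 4.77%). DESeq2 called Cish and Socs7 among the members, and Cish was the member with an unadjusted p under 0.05 by edgeR (p = 0.00295, adjusted p = 1). Cish had no count in any RAW-G9 Mock biopsy. After LPS it had 86.5, 33.3, 0 and 84.7 CPM in the RAW-G9 sums of batches 6, 7, 8_8 and 9_4 and 1.73 CPM in the wild-type sum of batch 5Reseq. The counts came from 8 of 50 biopsies, 1 of which held 97.8% of those of batch 9_4. The LPS biopsies pooled, wild-type ones included, had 38.2 CPM, with batch 8_8 at 0 in both states. Copies of 1 molecule were not marked, so a single captured molecule can give many counts, and no fold over Mock is given.

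Socs3 in Live-seq had 0.639, 32.3, 41.4 and 52.8 CPM in the Mock sums of batches 6, 7, 8_8 and 9_4. The LPS sums of the same batches had 0, 196.6, 12.6 and 223.8 CPM, and the wild-type LPS sum had 441.9 CPM. Batches 7 and 9_4 were higher after LPS by 6.09-fold and 4.24-fold, batch 8_8 was lower, and batch 6 had 1 count in Mock and 0 after LPS, so the groups overlapped (log2 fold change 1.21, SE 1.17, edgeR adjusted p = 1). Biopsies with a Socs3 count numbered 24 of 50 after LPS and 17 (16.5%) without. The wild-type LPS sum was also the only RAW_LPS sum with appreciable Socs1, 28.1 CPM from 4 of 11 biopsies, against at most 0.414 CPM in the others. Wild-type cells were in 1 batch only, with 1 Mock biopsy, so that the line and the batch cannot be told apart. Socs7, which DESeq2 called, had 47.5, 22.9, 3.50 and 13.05 CPM in the LPS sums of batches 6, 7, 8_8 and 9_4 and 2.89 CPM in the wild-type sum, against 0.639, 0, 11.9 and 0 CPM in the Mock sums. At most 3 biopsies of any LPS sum had a Socs7 count.

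Whether LPS acted differently on the members in biopsies and whole cells was tested as an interaction, and 0 of 8 passed by edgeR or by DESeq2, as did 0% of 13565 genes by edgeR (4.92% had an unadjusted p under 0.05, and DESeq2 called 3.01%). Only Socs7 had an unadjusted p under 0.05 (p = 0.0494, adjusted p = 1). The difference for Cish was 5.72 log2 units (SE 3.12) and that for Socs3 was -0.28 (SE 1.37).

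RAW cells sampled before and after LPS gave 4 pairs of biopsies from the same cell. One of these pairs carries the same sampling-order label on both biopsies, and its Mock biopsy was taken as the earlier. Cish was at 0 in every biopsy of these pairs. Socs3 was counted in none of the 4 Mock biopsies and in 2 of the 4 LPS biopsies, each at 279.3 CPM or more. Socs5 likewise had counts in 2 biopsies after LPS, at 2.83 and 339.2 CPM, and in none before. Socs4 went from 0 to 1067 CPM in 1 cell and from 24 counts to 3 in another. Each LPS biopsy of a pair came from a cell already sampled once, so LPS and the earlier sampling cannot be told apart here. Such second biopsies are also part of the Live-seq RAW_LPS sums. With biopsies of 304546 to 846942 total counts, a member missing from 1 biopsy may have been present in the cell, and no test was made.

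The adipogenic cocktail was given to ASPCs in 1 scRNA-seq batch (9_1, 44 Pre and 35 Post cells) and 1 Live-seq batch (9_4, 43 Pre and 37 Post biopsies), so its values have no replicate check and are given with 95% counting intervals only. PCR copies of 1 molecule were not marked, so these intervals understate the error. Cish was the member with the largest difference. It went from 11.2 to 2.67 CPM in whole cells, a ratio of 0.239 (0.171 to 0.328), and from 17.1 to 0.438 CPM in biopsies, a ratio of 0.0256 (0.0102 to 0.0535). Cells with a Cish count went from 52.3% to 17.1% in whole cells and from 34.9% to 5.41% in biopsies, and 35 of the 46 Post counts in whole cells came from 1 cell.

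Of the other members, 4 had a higher level in ASPC_Post in both techniques. Socs7 went from 7.60 to 26.8 CPM in whole cells (ratio 3.52) and from 2.51 to 5.82 CPM in biopsies (2.31). Socs4 went from 86.6 to 194.4 CPM (2.24) and from 46.2 to 86.8 CPM (1.88). Socs2 had ratios of 1.72 and 2.26 and Socs3 ratios of 1.62 and 2.42, in whole cells and biopsies respectively. Socs5 and Socs6 were lower in both, with ratios of 0.943 and 0.684 for Socs5 (1.01 in whole cells as a mean over cells) and of 0.805 and 0.718 for Socs6. Socs1 was the member whose direction differed, at 1.95 (1.52 to 2.51) in whole cells and 0.869 (0.672 to 1.12) in biopsies.

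**Figure D4:**
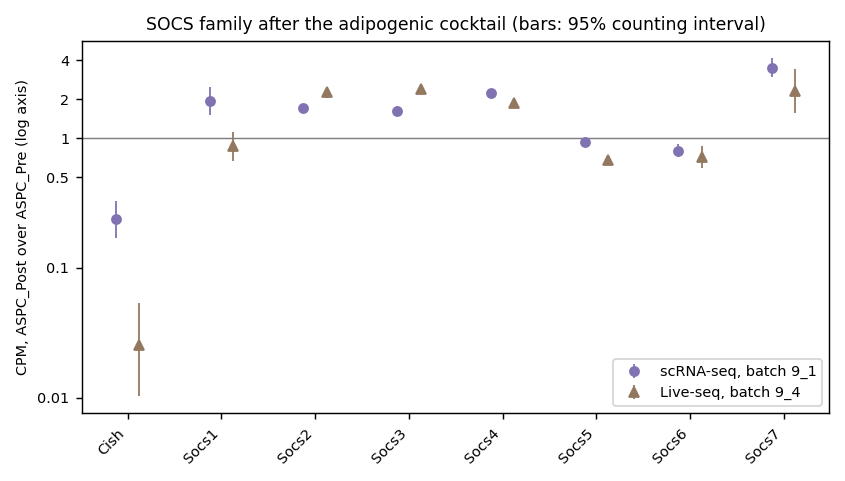
Ratio of CPM in ASPC_Post to ASPC_Pre for each member on a log axis, with circles for scRNA-seq batch 9_1, triangles for Live-seq batch 9_4 and bars for 95% counting intervals. Cish lies lowest in both techniques (0.239 and 0.0256), Socs7 and Socs4 lie above 1 in both, and Socs1 lies on either side of 1.

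The labels tie biopsies before and after the cocktail to the same cell for 9 ASPCs, and the cell barcodes behind this were not checked here. The paper reports fewer ASPC pairs than this, with their barcodes recovered, and which it leaves out was not determined. Socs5 was lower in the second biopsy of 7 cells and higher in 1. In 5 of them it went to 0, from levels of 32.1 to 354.8 CPM. Socs1 was counted in the first biopsy alone in 4 cells, with 3 to 15 counts, and in no second biopsy. Cish was likewise counted in the first biopsy alone in 2 cells, with 5 and 12 counts. Socs2 was higher in the second biopsy of 6 cells and lower in 1, where the second biopsies had up to 88 counts. Socs4 was lower in 7 of 9 cells, whereas its level over all biopsies was higher after the cocktail. Each second biopsy came from a cell already sampled once, so the cocktail and the earlier sampling cannot be told apart in these pairs. Such second biopsies are also part of the Live-seq ASPC_Post sum. No test was made on these pairs.

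IBA cells were also sequenced whole 1 h and 4 h after a biopsy had been taken from them, beside unprobed control cells, all in batch 8_1. There is 1 batch, so no test of the members was made, and Socs5 had been singled out in earlier analyses of these cells, so its values are a description. Socs5 had 166.4 CPM in 70 control cells, 54.4 CPM in 49 cells at 1 h and 39.8 CPM in 43 cells at 4 h. The ratios to control were 0.327 (95% counting interval 0.306 to 0.349) at 1 h and 0.239 (0.220 to 0.260) at 4 h. The control level lay within the range of the 3 IBA sums of scRNA-seq (140 to 171.3 CPM), and both later levels lay below it. The median cell had 146.4, 34.3 and 17.7 CPM, so the lower level was not that of a few cells. Cells with a count were 65 of 70, 43 of 49 and 34 of 43, and after thinning to 50000 counts 91.2%, 65.3% and 55.8% of cells had one. Of 4221 genes with at least 50 CPM in control cells, 65 (1.54%) were lower by at least 2-fold at 1 h and 73 (1.73%) at 4 h.

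The other members differed less or were low. Socs1 had 18.8 CPM in control cells and 6.36 and 6.66 CPM at 1 h and 4 h, with ratios of 0.338 (0.278 to 0.410) and 0.354 (0.284 to 0.438), and the cells with a count were 71.4%, 46.9% and 27.9%. Socs7 had ratios of 0.518 and 0.732 and Socs2 of 0.731 and 0.814. Socs4 had 54.2, 56.6 and 34.2 CPM, with ratios of 1.05 at 1 h (0.915 as a mean over cells) and 0.631 at 4 h. Socs6, at 56.1, 57.5 and 54.1 CPM, had intervals that included 1 at both times, as did Cish, at 4.14, 4.47 and 5.03 CPM. Socs3 had 8.65, 7.93 and 6.03 CPM, with ratios that turned to 2.05 and 1.13 after thinning, and so lay below the 25.4 to 125 CPM of the IBA sums in scRNA-seq already in the control cells. Per kilobase, the family added up to 55.6 CPM in control cells, 32.0 at 1 h and 26.5 at 4 h, and Socs5 made up 46.6%, 26.5% and 23.4% of it. The 12 LPS response markers added up to 2080, 3402 and 2050 CPM over the same groups, and the 10 macrophage markers to at most 27.3 CPM.

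**Figure D5:**
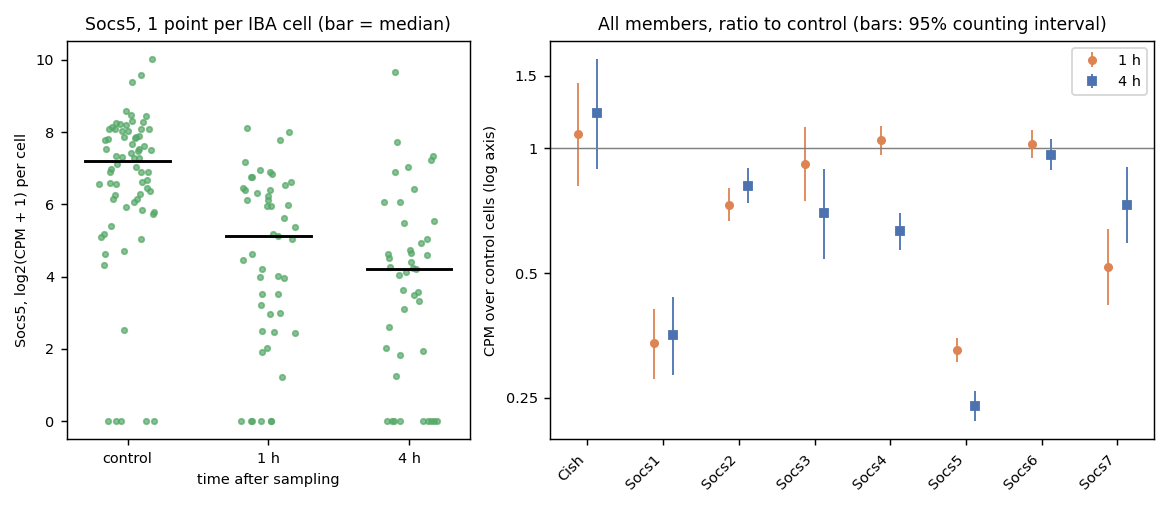
Left, log2(CPM + 1) of Socs5 in each IBA cell of the control, 1 h and 4 h groups with a bar at the median, and right, the ratio of CPM to control for each member on a log axis with 95% counting intervals. Socs5 (0.327 and 0.239) and Socs1 (0.338 and 0.354) lie lowest, and Socs6 and Cish have intervals that include 1.

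The other genes of the pathway gave a context for these comparisons. The lists hold 11 JAK and STAT genes, 24 receptors and 15 ligands that signal through JAKs, 13 other inhibitors, 6 subunits of SOCS box ligases, 18 STAT-responsive genes other than SOCS and 11 SOCS targets outside the pathway. With LPS in scRNA-seq, 2 of 9 tested ligands were called higher. They were Tslp, at 3.17 ± 2.22 CPM (SD, n = 3) against 0.0194 ± 0.0336 (log2 fold change 7.52, edgeR adjusted p = 0.0364), and Il15, at 21.6 ± 16.7 against 0.846 ± 1.17 CPM (4.98, edgeR adjusted p = 0.0405). Of the 18 STAT-responsive genes 17 had a log2 fold change above 0, their median was 1.61, and 11 had an unadjusted edgeR p under 0.05. Over all 13565 genes tested, 6693 had a log2 fold change above 0 and the median was -0.0072. None of the 10 JAK and STAT genes tested, 19 receptors, 13 inhibitors, 6 ligase subunits and 11 targets was called by edgeR, and 4, 7, 1, 2 and 1 of them had an unadjusted p under 0.05, against 14.6% of all genes tested. Their median log2 fold changes were 0.81, 0.041, 0.27, 0.15 and -0.030.

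Between IBA and ASPC_Pre, 6 of the 7 lists held calls, and 11.2% of all genes tested were called. Of 10 JAK and STAT genes tested 3 were lower in IBA, Stat6 (43.5 against 110.8 CPM, log2 fold change -1.79), Stat3 (-1.13) and Jak1 (-1.06). Of 19 receptors 3 were lower, Il4ra (-2.11), Ghr, the growth hormone receptor that SOCS2 binds (60.4 against 130 CPM, -1.99), and Il6st, the shared subunit of IL-6 type receptors that SOCS3 binds (-1.08). Of 11 SOCS targets Egfr was lower (29.97 against 162 CPM, -3.20) and Insr higher (34.2 against 9.28 CPM, 1.62). Ptpn1, a phosphatase that acts on JAK2, was the only one of 13 inhibitors called (1.04). Of 9 ligands 1 was called lower by the fit, but it was not lower in every batch that held both groups and is not named. Among the STAT-responsive genes Junb was higher (1.73) and Ifit3 and Il4ra were lower. All genes named for this comparison had an edgeR adjusted p under the threshold, the largest being 0.0496 for Ptpn1.

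Each of the 7 lists held calls between RAW_Mock and the adipose cells, a comparison in which 38% of all genes tested were called. Of 19 receptors 6 were lower and 6 higher, with Osmr (-12.06) and Ghr (-11.82) at most 0.0783 CPM in any RAW_Mock sum, and Csf3r (48.1 CPM) and Il21r (24.3 CPM) near or at 0 in the adipose sums. SOCS targets were lower in 4 of 11 cases, namely Irs1, Egfr, Igf1r and Irs2, which are growth factor receptors or adaptors of insulin signalling, and of which no RAW_Mock sum had more than 0.231 CPM. Jak1 (-2.13), Stat3 (-2.10) and Jak2 (-1.88) were the 3 JAK and STAT genes called lower. The ligase subunits Eloc (-1.32) and Elob (-1.24), with which the SOCS box pairs, were lower as well. The phosphatases Ptprc and Ptpn6, which are typical of blood cells, were higher, and Cblb and Ptpn11 were lower. Of 9 ligands 5 were lower, Clcf1, Ctf1, Tslp and Il6 among them, and of 18 STAT-responsive genes 3 were higher, with Bcl6 and Pim1 among them, and 4 lower, with Myc and Il4ra among them. In Live-seq this comparison called Osmr and Ghr lower and Il2rg, Ptpn6 and Ptprc higher, and no gene of these 7 lists was called by edgeR in the other Live-seq comparisons.

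For the 5 members called in scRNA-seq, the genes most like them were sought among 9497 genes with a mean of at least 10 CPM over the 12 scRNA-seq sums, by Pearson correlation of log2(CPM + 1). The points share states and batches, so the values are a description. Cish was most like Ddx58 (r = 0.92), Isg15 (0.91) and Fas (0.88), which had r of 0.61, 0.41 and 0.59 with it over the 15 Live-seq sums. Socs2 was most like Vgll3, Numbl and Adam12, with r of 0.997 for Numbl and 0.77 to 0.79 in Live-seq for the 3 genes. Socs5 was most like Pik3r3 (0.98, 0.67 in Live-seq), Klf3 and Csf1, and Socs1 most like Plagl1 (0.96, 0.56 in Live-seq), Ptprf and Cxcl1. Socs4 was most like B4galt5, Cpeb2 and Paf1, with r of 0.90 to 0.95 in scRNA-seq and 0.15 to 0.32 in Live-seq. Among the members themselves the highest value was that of Socs2 with Socs5, at 0.92 in scRNA-seq and 0.61 in Live-seq. Cish and Socs3 had r of 0.59 with each other in scRNA-seq.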

How the data were processed

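The deposited table holds raw counts of reads per gene for single-cell libraries made by a Smart-seq2 protocol without molecular identifiers. According to the methods and processing notes, the authors demultiplexed with bcl2fastq 2.19.1, aligned reads of 75 bases to GRCm38 with STAR 2.6.1c and counted reads without strand over Ensembl 87 exons with HTSeq. From these counts, 20 negative-control and 85 ribosomal protein genes (median 24.2% of counts per cell) were left out and the remaining counts were summed per state and batch (at least 3 cells). Genes needed at least 2 counts in 15% of cells of an scRNA-seq state. Sums were tested with edgeR 4.0.16 (R 4.3.3, quasi-likelihood, original fit, state and batch as terms, TMM scaling) with Benjamini-Hochberg adjustment over all genes. DESeq2 1.42.0, the newer edgeR fit and the other alternatives are given in the closing section.

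Batches are named by the labels and pair the sums, hence the replicate block. Within batches, deviations from the state means correlated at 0.25 to 0.43 in scRNA-seq and -0.019 to 0.25 in Live-seq. Intervals are 95% counting intervals (exact binomial or Poisson) and cover counting error only. All members were named, up to 4 called genes per pathway list with 1 direction in every batch, and the 3 genes most like each called member. Members and lists were chosen with earlier results of these data known. A gene of the STAT-responsive list and a second promoter motif are not reported here.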

Additional observations from a re-analysis of the deposited data

Results flagged for a closer look

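Live-seq sums of 4 kinds held 1 value far from the others of their group. Over the 14 groups of 4 or 5 sums examined, 4 held such a value, where chance gives about 1 in 20 groups if values are normally distributed. That was not tested, and these sums often rest on single biopsies, so no excess is read from the count. Socs1 had 28.12 CPM in the wild-type RAW_LPS sum of batch 5Reseq, where the nearest of the other 4 sums had 0.4141 CPM. Socs6 had 55.55 CPM in the RAW_LPS sum of batch 7, where the nearest had 10.21 CPM, and 76.6% of its counts came from 1 biopsy. Socs6 also had 75.45 CPM in the RAW_Mock sum of batch 6, where the nearest had 24.82 CPM and all 118 counts came from 1 biopsy. Socs7 had 11.89 CPM in the RAW_Mock sum of batch 8_8, from 11 of 63 biopsies, where the nearest had 0.6394 CPM.

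The ratio of ASPC_Post to ASPC_Pre for Socs1 lay on opposite sides of 1 in the 2 techniques, at 1.95 in whole cells and 0.8689 in biopsies. With 1 batch for each technique, this difference was not tested.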

How the results depend on the processing

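No tested comparison of a member that was called changed direction under any alternative that was run. Untested ratios of members turned in some cases. As a mean over cells, Socs5 in whole ASPCs went from 0.943 to 1.01, which leaves 2 rather than 3 members lower after the cocktail in both techniques. After sampling, Socs3 at 1 h went from 0.917 to 1.29 as a mean over cells and 2.05 after thinning, Socs3 at 4 h from 0.698 to 1.13 after thinning, Socs4 at 1 h from 1.05 to 0.915 and 0.850, and Cish after thinning from 1.08 and 1.22 to 0.730 and 0.916. Of the 8 members, the LPS comparison in whole cells called 0 by edgeR, 2 by DESeq2 and 1 each by the newer edgeR fit, with cells thinned to 50000 counts and with RAW sums alone. IBA against ASPC_Pre in whole cells called 2, 3 (Socs1 added) by DESeq2 and by the newer edgeR fit, 1 without the replicate block and 0 to 1 when a batch was left out. RAW_Mock against the adipose cells called 4 in whole cells, 3 without the block and 3 to 4 when a batch was left out. In Live-seq the LPS comparison called 0 by edgeR and 2 by DESeq2. RAW_Mock against the adipose cells in Live-seq called 0, and 1 (Cish) by DESeq2, by the newer edgeR fit, without the replicate block and with sums of 1 or 2 cells kept. The cause of these differences was not tested. The replicate block changed no other call. Socs5 at 1 h had a ratio of 0.327, and 0.2556 after thinning. At 4 h it had 0.239, and 0.2606 after thinning and 0.2927 as a mean over cells.

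Shares of all genes tested moved further. With LPS in whole cells 1.23% were called, against 5.26% by DESeq2, 3.02% by the newer edgeR fit, 3.28% after thinning, 4.36% in RAW sums alone, 0.258% without the block and 0%, 0.135% and 0.0295% without batches 8_8, 9_1 and scRNA. IBA against ASPC_Pre called 11.2%, against 15.1% by DESeq2, 19.4% by the newer fit, 7% without the block, and 0.322% and 3.24% without batches 9_1 and scRNA. RAW_Mock against the adipose cells in whole cells called 38%, against 38.9% by DESeq2 and 42.2% by the newer fit. It called 34.9% without the block and 29.4% to 39.2% when a batch was left out. In Live-seq, LPS called 0% against 4.77% by DESeq2 and 0.136% after thinning, and IBA against ASPC_Pre called 0.0223% against 2.06% and 0.344%. RAW_Mock against the adipose cells in Live-seq called 2.87%, against 13.4% by DESeq2, 7.58% by the newer fit, 6.28% without the block, 6.94% after thinning and 0.179% to 3.76% when a batch was left out. The technique difference called 0% for LPS, against 3.01% by DESeq2 and up to 0.221% when a batch was left out, and 0% for IBA against ASPC_Pre, against 0.708% and up to 1.08%. DESeq2 moved the median of all genes for LPS in Live-seq from -0.48 to -0.088.

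Depth limits the low members most. Over the summed RAW_Mock cells, 3 counts correspond to 0.0934 CPM in Live-seq and 0.0467 CPM in whole cells, and a single sum has a higher floor, up to 2.13 CPM in Live-seq and 0.729 CPM in whole cells. These floors are in counts, and copies of 1 molecule were not marked, so they are not limits in molecules. A member at 0 in a sum was not detectable at the depth of that sum.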
